A study of Mus musculus with 8 samples.

Results

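The ADAM and ADAMTS proteases were followed in 2 sorted cell populations of the mouse brain after a stroke, resident microglia and invading macrophages. Members were all genes that the array files call Adam or Adamts with a number, together with the Adamtsl genes, and 57 of the 34821 gene names on the array met this rule. These 57 members were read by 91 probes. Where a gene had several probes, which applied to 28 members, the probe with the highest mean signal stood for it. All 57 names matched a current mouse symbol in RefSeq.

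ADAMs are membrane proteins that carry a metalloprotease domain and a disintegrin domain. The catalytically active ones cut the outer part of other membrane proteins free, a process called shedding, and ADAM17 and ADAM10 are the best known sheddases, releasing among others tumour necrosis factor and parts of the amyloid precursor protein. Several ADAMs lack the zinc-binding site and act as adhesion molecules or receptors, and many others are known from testis and sperm. ADAMTS proteases are secreted enzymes with thrombospondin repeats that cut matrix proteins such as versican, aggrecan, procollagens and von Willebrand factor, and the ADAMTS-like proteins share their ancillary domains but have no protease domain.

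The cells came from 4 C57BL/6 mice, named A to D, which were bone marrow chimeras. Every animal had 30 min of focal brain ischemia by occlusion of the middle cerebral artery (MCAo), followed by 7 days of reperfusion, and no group without ischemia was analysed here. Each animal gave 1 sample of GFP+ cells, labelled resident microglia, and 1 sample of RFP+ cells, labelled invading macrophages, so that replicates 1 to 4 of both groups are animals A to D. The groups are therefore defined by a fluorescent label in a chimera. How complete the chimerism was, and which other host or donor cells carried a label, is not stated in the labels.

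Each sample was read on 1 one-colour array, and 45.7% to 57.1% of the probes on an array were well above background. Values are log2 signals relative to the 75th percentile of the same array, so that a value of 0 equals that percentile. Differences are macrophages minus microglia, and levels of different genes are not compared, because each probe has its own brightness. The labels held for defining markers. P2ry12, a receptor of microglia, lay between 6.77 and 7.56 in microglia and between 3.25 and 4.44 in macrophages, and Ccr2, a chemokine receptor of monocytes, between 0.74 and 1.49 in microglia and between 3.16 and 3.70 in macrophages. Macrophage replicate 2 stood apart, and its array correlated with those of the other macrophages at 0.855 to 0.887 across the tested gene names. Microglial markers were not absent from macrophages: 9 to 10 of 10 were detected there, with medians of 3.72 to 5.52 against 6.60 to 6.99 in microglia. Cldn5, a tight junction gene of brain endothelium, was -5.87 to -2.38 in microglia and 1.61, 7.09, 3.33 and -1.34 in macrophages, Pecam1 was highest in macrophage replicate 2 at 6.24, and Pdgfrb, a pericyte receptor, was detected on that array only. The median over 14 endothelial markers on replicate 2 was 5.43, with all 14 well above background, against -2.31 to 1.56 in the other macrophages (11 to 14 detected) and -5.63 to -4.17 in microglia (4 to 6 detected). Its mural cell markers, 9 of 10 detected, had a median of -0.54 against -5.32 to -3.06 in the other macrophages. Its medians of T and NK cell, neutrophil, dendritic cell and red blood cell markers were also the highest of all arrays (0.83, 4.14, 0.81 and -0.58). Its microglia and border macrophage medians were the lowest (3.72 and -2.28). Values that rest on this array are given with and without it. In limma, 498 gene names were higher and 815 lower in macrophages among 19720 tested at an adjusted p under 0.05, and the median difference of all tested names was 0.02.

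Most of the family was dim or silent in these cells. Detection of a member is that of the probe used for it, and other probes of a gene can differ. Of the 57 members, 38 were well above background on at least 1 array and 19 on none. Adam9, Adam10, Adam11, Adam15, Adam17, Adam33, Adamts10 and Adamtsl4 were detected on all 8 arrays. A total of 33 members were detected in at least 1 microglia sample and 31 in at least 1 macrophage sample, with 26 in both. Microglia samples had 20, 22, 31 and 22 detected members, and macrophage samples had 13, 23, 21 and 18, so the ranges of the groups overlapped. The subfamilies differed in how many of their members were detected. All 9 broadly expressed sheddases and related ADAMs were detected on at least 1 array, and so were 2 of the 3 brain ADAMs without a catalytic site. Among the ADAMTS proteases, 6 of 7 that cut hyalectans, 2 of 3 procollagen N-proteinases and 5 of the remaining 9 were detected. The ADAMTS-like proteins had 4 of 5 detected members, and the remaining ADAMs, most of them known from reproductive tissue, had 10 of 21. The 19 members on no array were Adam1b, Adam2, Adam6a, Adam7, Adam20, Adam23, Adam24, Adam25, Adam26b, Adam29, Adam30, Adam34, Adamts3, Adamts7, Adamts15, Adamts17, Adamts18, Adamts19 and Adamtsl3.

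Testing required detection (a probe well above background) on 4 or more arrays, and 24 of the 57 members met that rule. The macrophages had less Adamts16, Adam3, Adam4 and Adam15 RNA than microglia, and no member passed the test in the other direction (limma, adjusted p under 0.05, with 1 member higher and 5 lower at an unadjusted p under 0.05). The 4 lower members of 24 compare with 4.13% of all tested names called lower, and the absence of higher ones with 2.53% called higher. For each of the 4, all macrophages lay below all microglia, so that macrophages were lower in each of the 4 animals however the samples are paired. Adam4 met the detection rule through its microglia arrays alone and so had to lie lower in macrophages. Adamts16 and Adam3 had 1 macrophage array detected each, but their 4 microglia arrays were already enough to meet that rule. The counts over tested members are therefore a description. The median difference of the 24 tested members was -0.36. In sorted samples of many cells, fewer cells that express a gene and less RNA per cell cannot be told apart. Markers of other cells moved with the groups as well, as the endothelial values above show, and their part in these results was not tested.

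The probes of these members are shown because each call rests on what 1 or 2 short sequences captured. The first 30 of 60 bases are printed 5′ to 3′ as in the array files, which place the probes in build mm9, all on the minus strand.
Adamts16, probe used: gatgggggctatgatatagggctttgcata
Adamts16, second probe: catctctacctcctatatttctgtgcgcaa
Adam3, probe used: ttctctcacagttgctgggaattaacctgg
Adam3, second probe: tctctgtggcttactgtttttggttataca
Adam4, only probe: tgcagttttcaaagcaatatttgtttcaga
Adam15, only probe: gaaggacatggacactgtctatctctgctc
The Adamts16 probes lie at chr13:70867148-70867207 and chr13:70906800-70906859, and the Adam3 probes at chr8:25817871-25817930 and chr8:25787707-25787766. The Adam4 probe lies at chr12:82520575-82520634 and the Adam15 probe at chr3:89143563-89143622. The files place each of them in the transcript of its gene, and whether that stretch is coding was not analysed here. Across all chosen probes of the family, the closest pair of different members, Adam25 and Adam39, shared 32 of 60 bases in an ungapped comparison. None of the chosen probes was thus a near copy of another chosen probe. Matches of a probe to the transcripts of other members were not analysed here.

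Adamts16, a secreted protease known from kidney and ovary, had the smallest adjusted p of the 24 tested members. Microglia had values of -0.11, 1.01, 0.76 and -0.32 in animals A to D, and macrophages had -3.58, -3.99, -3.20 and -3.54. All microglia lay above all macrophages, and macrophage replicate 3 was the only macrophage array with a signal well above background. Means were 0.34 ± 0.65 in microglia and -3.58 ± 0.32 in macrophages (SD, n = 4 each). The difference was -3.91 (SE 0.35, limma adjusted p = 0.000446). With signals under the detection floor of an array raised to that floor, Adamts16 was 14.6-fold lower in macrophages. The second probe, whose position in the gene is separate, was detected in all 4 microglia samples and in 0 of 4 macrophage samples, with means of -0.64 and -6.03. The difference was -3.77 without macrophage replicate 2 (adjusted p = 0.00101).

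Adam3, a membrane protein of sperm that is needed for fertilization in mice, was also lower in macrophages. Microglia had values of -2.04, -0.56, -0.24 and -0.96, and macrophages had -5.16, -3.05, -5.31 and -5.96. The groups did not overlap, and the highest macrophage was replicate 2, the only one detected. Means were -0.95 ± 0.78 and -4.87 ± 1.26 (SD, n = 4 each), and the difference was -3.92 (SE 0.65, limma adjusted p = 0.010000). Adam3 was 5.88-fold lower in macrophages with signals raised to the floor. Without replicate 2 the difference was -4.53 (adjusted p = 0.00108). The second probe was dimmer, with 3 microglia samples and 0 macrophage samples detected and a difference of -2.49. Microglia replicate 1 was at -5.39 with that probe, level with the macrophages.

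Adam4, another ADAM of the testis, was detected in all 4 microglia samples and in 0 of 4 macrophage samples. Microglia had values of -2.27, -3.44, -3.68 and -2.08, and macrophages had -4.01, -6.46, -5.74 and -5.20. The groups lay apart, with macrophage replicate 1 only 0.33 below the lowest microglia sample. The difference was -2.49 (SE 0.58, limma adjusted p = 0.0391), and the signal was at least 2.18-fold lower in macrophages when set against the detection floor. The call was kept in 2 of the 8 fits that left out 1 array, those without macrophage replicate 1 or 2, with adjusted p up to 0.105. A normexp background correction left a difference of -0.51 (adjusted p = 0.239). That correction adds an offset to every signal, and it also gave -2.0 for Adamts16 and -1.45 for Adam3, both of which stayed called. The cause of the smaller differences was not tested.

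Adam15, a membrane protease with an integrin-binding motif that is found on many cells, was well above background on all 8 arrays. Microglia had values of 3.28, 3.03, 2.83 and 2.87, and macrophages had 1.95, 1.95, 1.87 and 2.14. The groups lay apart, and the lowest microglia sample was 0.68 above the highest macrophage sample. Means were 3.0 ± 0.21 and 1.98 ± 0.12 (SD, n = 4 each). Adam15 was 2.04-fold lower in macrophages (difference -1.03, SE 0.20, limma adjusted p = 0.0213). A fit that takes the animal as a block lost the call (adjusted p = 0.0749), and so did a slide block (0.0516). It was kept in 2 of the 8 fits that left out 1 array, those without macrophage replicate 2 or 4.

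**Figure D1:**
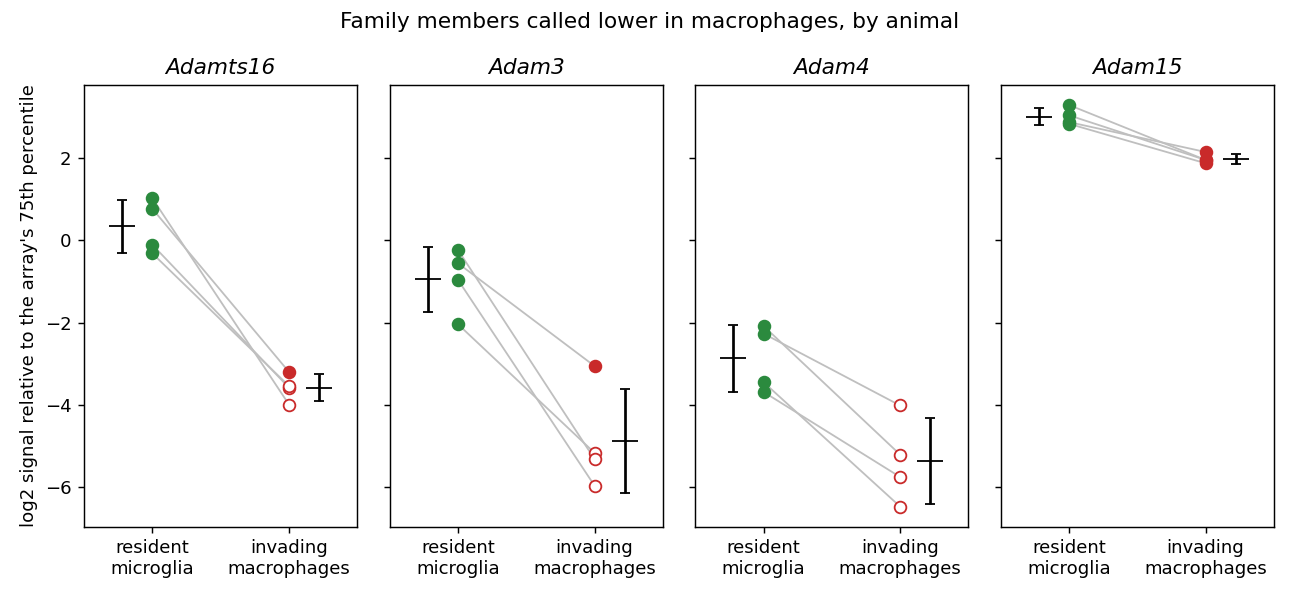
Log2 signal relative to the 75th percentile of the array for Adamts16, Adam3, Adam4 and Adam15 on each array, with lines joining the microglia and macrophage samples of an animal, filled points for signals well above background, and the mean ± SD beside each group. Every line falls from microglia to macrophages, and most macrophage points of Adamts16, Adam3 and Adam4 are below detection.

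The animal is named in the labels, so the fit with the animal as a block is a second reading of the same calls. Adamts16, Adam3 and Adam4 stayed called with it (adjusted p = 0.0107, 0.0273 and 0.0254), which is 3 of 24 members against 2.44% of all tested names called lower in that fit. The arrays were spread over 2 slides, with 2 microglia samples and 1 macrophage sample on the first. With slide as a block, Adamts16 and Adam3 stayed called (against 2.94% of all tested names called lower) and Adam4 did not (adjusted p = 0.0749). Within the first slide the differences of Adamts16, Adam3, Adam4 and Adam15 were -4.03, -3.86, -1.16 and -1.21, and within the second -3.79, -4.17, -2.92 and -0.86. The sign was the same on both slides, and none of the 4 passed within 1 slide, where 3 or 5 arrays remained.

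The 2 sheddases named most often for immune cells did not pass the test. Their probes lie at chr9:70627859-70627918 on the plus strand for Adam10 and at chr12:21329378-21329437 on the minus strand for Adam17, and are shown as the measured part of the best known members.
Adam10, probe used: gaccagtgagatctaatactactgtcagtt
Adam17, probe used: ttgatgtctgtgaattactaataaagctac
Adam17, second probe: tgtgaattactaataaagctacgcacatgt
Adam10, which sheds Notch receptors and adhesion molecules, had values of 5.06, 4.46, 4.27 and 4.89 in microglia and 4.74, 4.4, 4.29 and 4.52 in macrophages. These ranges overlapped, and the difference was -0.18 (SE 0.25, limma adjusted p = 0.686), with a sign that turned to 0.023 when arrays were centred on their median. Adam17, which sheds tumour necrosis factor, had values of -0.76, -1.06, -2.14 and -1.68 in microglia and -0.70, -1.66, -0.49 and -1.01 in macrophages. The difference was 0.45 (SE 0.38, limma adjusted p = 0.511). The second Adam17 probe gave 0.66, but it shares 52 bases with the first and is no separate check.

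Adam9 and Adam8 were higher in 3 of the macrophage samples than in their microglia, while macrophage replicate 2 lay low. Adam9, a broadly expressed sheddase, had values of 2.48, 2.01, 2.27 and 2.55 in microglia and 3.64, 1.77, 3.07 and 3.22 in macrophages. The difference was 0.60 (SE 0.39, limma adjusted p = 0.395), and without replicate 2 it was 0.98 (adjusted p = 0.0319). Adam8, an ADAM of myeloid cells that cuts itself to become active, had values of 0.68, -1.32, -1.32 and -3.43 in microglia and 1.19, -4.46, 0.11 and 0.61 in macrophages. The groups overlapped widely, with a difference of 0.71 (SE 1.30, limma adjusted p = 0.773) and of 1.98 without replicate 2 (adjusted p = 0.154). Microglia alone spanned 4.11 log2 units for this gene, the widest microglia range of the 9 sheddases.

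Adam33, described mainly in smooth muscle and fibroblasts of the airway, had a single low array. Values were 0.22, 0.50, 0.59 and -0.05 in microglia and 0.88, -3.46, 0.32 and 1.09 in macrophages. The low array was again replicate 2, and the other 2 Adam33 probes were lowest there as well, at -2.44 and -3.42. The difference of -0.61 (SE 0.92, limma adjusted p = 0.722) became 0.45 without that array (adjusted p = 0.288), so its sign rests on 1 sample. Adam12, Adam19 and Adam28 were detected on 2, 3 and 1 arrays and were not tested. Adam12, a protease of muscle and of matrix-forming cells, had values of -3.70, -3.96, -3.22 and -3.38 in microglia and -5.25, -4.25, -4.26 and -3.89 in macrophages. Adam19, named meltrin beta, had values of -3.84, -4.13, -3.59 and -3.42 in microglia and -5.11, -3.70, -4.96 and -4.34 in macrophages. The groups overlapped for both genes. Adam28, an ADAM of lymphocytes, had values of -4.30, -4.38, -4.58 and -2.41 in microglia and -3.90, -6.33, -5.80 and -5.03 in macrophages. With the probe used, only microglia replicate 4 was well above background. The second Adam28 probe was also detected on 1 microglia array, which was not replicate 4.

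**Figure D2:**
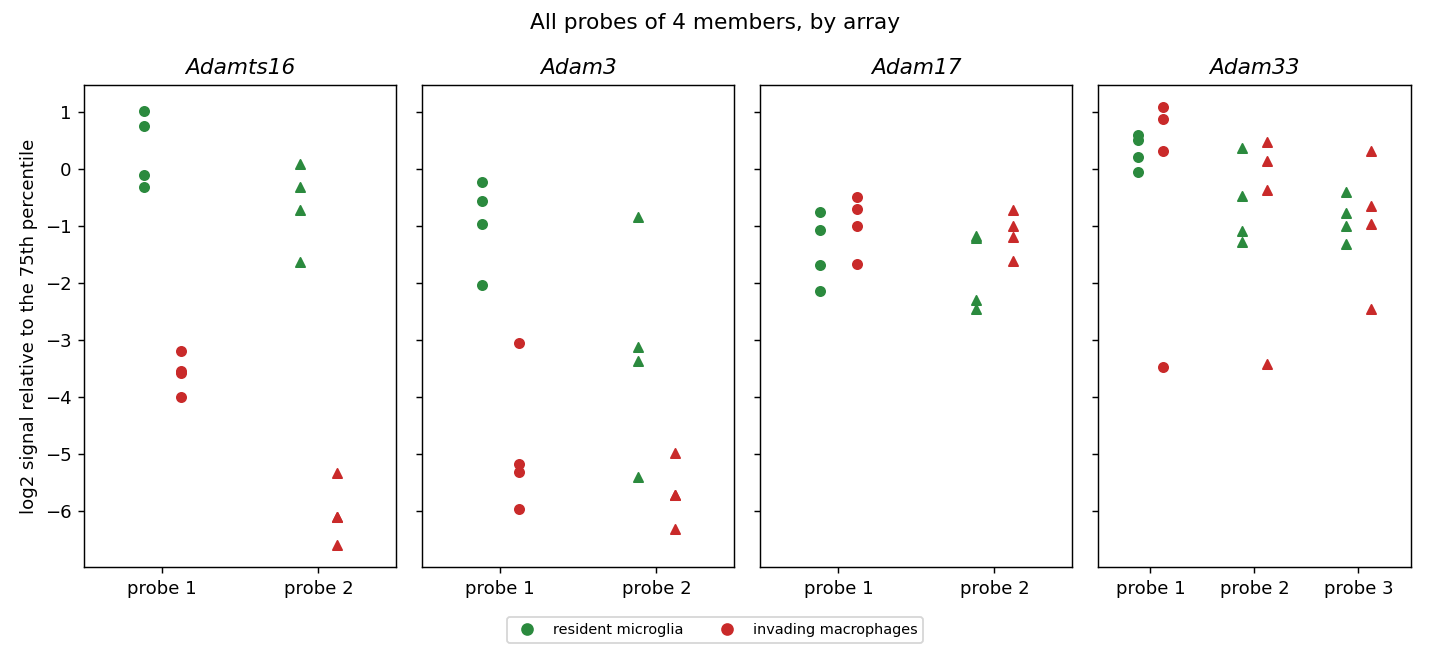
Log2 signal of every probe of Adamts16, Adam3, Adam17 and Adam33 on each array, with circles for the probe used and triangles for the others. Both Adamts16 probes separate the groups, and all 3 Adam33 probes are lowest in macrophage replicate 2.

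Among the ADAMs without a catalytic zinc site, Adam22, the neuronal receptor of the secreted protein LGI1, lay apart between the groups but missed the threshold. Microglia had values of 0.15, -1.04, -1.47 and -0.49, and macrophages had -3.05, -4.01, -2.15 and -1.59. The lowest microglia sample and the highest macrophage sample were 0.13 apart, and 3 of 4 macrophage arrays were detected. The difference was -1.99 (SE 0.56, limma adjusted p = 0.0733). It passed with the percentile taken over detected probes (-2.15, adjusted p = 0.0359) and without macrophage replicate 4 (-2.36, adjusted p = 0.0471). In all other alternatives it stayed uncalled. Among these were the animal block (adjusted p = 0.111), the slide block (0.131) and the fit without macrophage replicate 2 (-1.55, adjusted p = 0.0656). The smallest difference of any alternative was -0.36. The other 2 Adam22 probes were below background on all 8 arrays. Including Adam22, 5 of the 24 tested members had groups that did not overlap, all with macrophages below, against 9.46% of all tested names. Adam11, a related brain ADAM, had a difference of -0.44 (SE 0.25, limma adjusted p = 0.325). Adam23 was on no array with the probe used, while another of its probes was detected in microglia replicate 2 only, at -3.17.

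The other ADAMs that were tested belong to the group known from reproductive tissue. Adam1a, an ADAM of sperm, had values of -1.06, 0.93, 0.44 and 0.53 in microglia and -2.33, 1.23, -1.86 and -4.94 in macrophages. Macrophage replicate 2 was the highest of all 8 arrays, and the other 3 macrophages lay below every microglia sample. The difference was -2.19 (SE 1.13, limma adjusted p = 0.279), and without replicate 2 it was -3.25 (adjusted p = 0.0341). Adam18 (-0.50), Adam6b (-0.12) and Adam21 (0.94) had overlapping groups and did not pass. Of the untested ADAMs in this group, Adam26a, Adam32 and Adam39 were detected on 1 array each and Adam5 on 2. The Adam32 array was macrophage replicate 3, and a second Adam32 probe was detected in macrophage replicate 2 instead, at -3.65.

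The ADAMTS proteases that cut hyalectans, the large proteoglycans of the brain matrix, were uneven across the macrophage samples. Adamts1, which cuts versican and aggrecan and is made by endothelium among other cells, had values of -0.59, -0.85, -0.19 and -0.74 in microglia. Macrophages had -3.04, 2.17, -2.43 and -5.75, which places replicate 2 above all microglia and the other 3 below them. The difference was -1.67 (SE 1.39, limma adjusted p = 0.503), and without replicate 2 it was -3.14 (adjusted p = 0.0286). Adamts9, another versican-cutting protease, was well above background on a single array, macrophage replicate 2, at -1.80. That array also had the highest endothelial and mural marker medians, and the highest T and NK cell, neutrophil, dendritic cell and red blood cell medians. The part of any of these cells in the values of Adamts1, Adamts9, Adam1a and Adam33 was not tested. Adamts4 and Adamts5, the main aggrecanases of cartilage, had differences of 0.07 and -0.27 with overlapping groups (limma adjusted p = 0.937 and 0.798). The second Adamts4 probe, detected on 0 microglia and 2 macrophage arrays, gave 1.26, and 1.04 without replicate 2. Adamts8 and Adamts20 were detected on 1 array each, and Adamts15 on none.

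**Figure D3:**
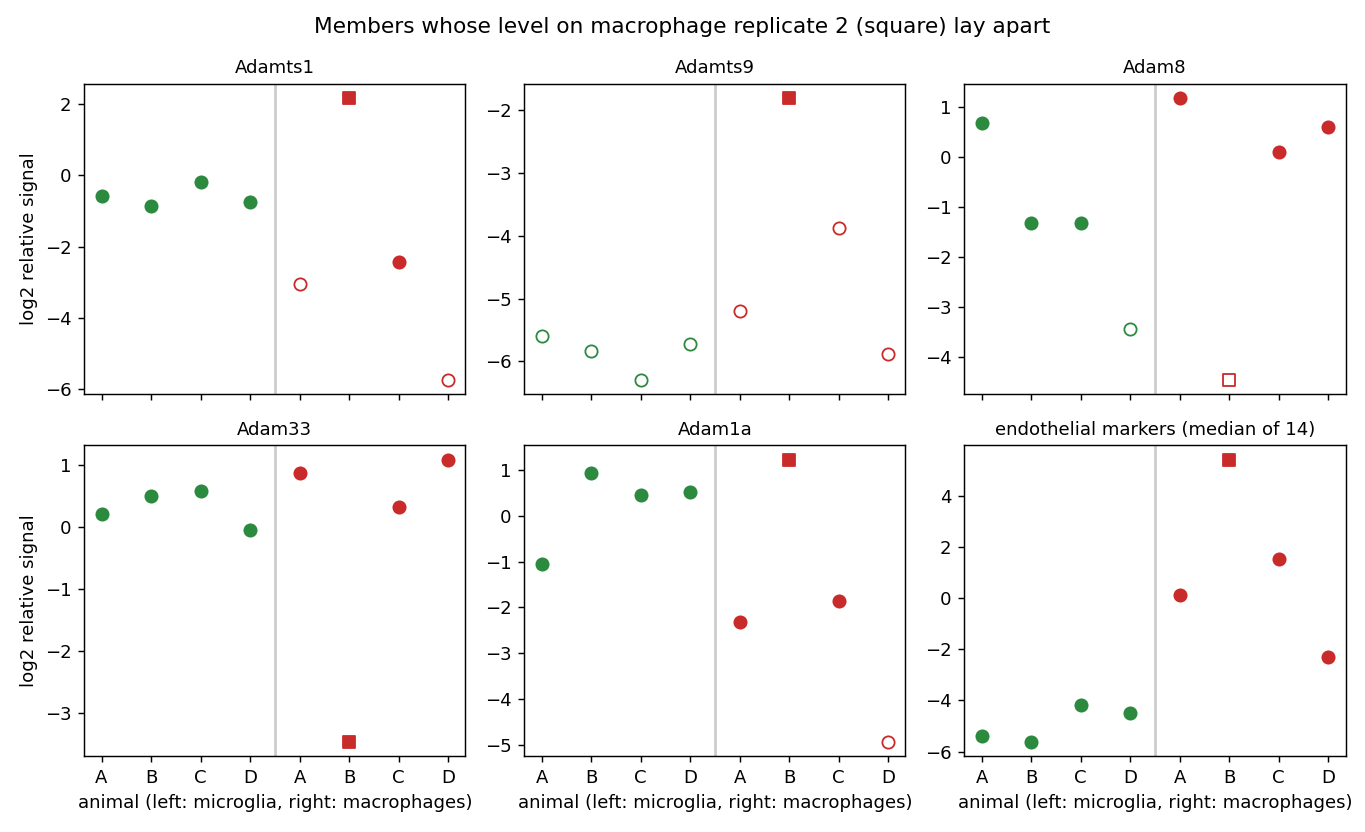
Log2 signal of Adamts1, Adamts9, Adam8, Adam33 and Adam1a and the median of the endothelial markers on each array, with macrophage replicate 2 drawn as a square and, for the genes, filled points for signals well above background. The members were chosen after their values were seen. Replicate 2 is the highest macrophage for Adamts1, Adamts9, Adam1a and the endothelial median and the lowest for Adam8 and Adam33. Marker medians of other cell types, not drawn, were also highest there.

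The remaining ADAMTS proteases and ADAMTS-like proteins had small or variable differences apart from Adamts16. Adamts10, a protease linked to fibrillin microfibrils, had values of -1.05, -0.30, -0.055 and -0.37 in microglia and -0.13, 0.99, 0.41 and 0.15 in macrophages. It was higher in macrophages in 4 of 4 animals, with overlapping groups and a difference of 0.80 (SE 0.32, limma adjusted p = 0.174), and its second probe gave 0.65. Adamtsl4, also a microfibril protein, had values of -1.80, -1.78, -0.93 and -2.40 in microglia and -1.44, -1.25, -0.34 and -1.09 in macrophages. It too was higher in 4 of 4 animals without passing (0.69, SE 0.37, limma adjusted p = 0.289). Adamtsl2, whose product binds a latent TGF-beta binding protein, had values of -4.19, -1.51, -2.27 and -3.15 in microglia and -5.05, -1.88, -5.78 and -5.71 in macrophages. The highest macrophage was replicate 2, the only one detected, beside 3 of 4 microglia samples. The difference was -1.82 (limma adjusted p = 0.271), or 1.35-fold lower with signals raised to the floor. Without replicate 2 it was -2.73 (adjusted p = 0.0243). Only the 3 microglia arrays were then detected, fewer than the rule of 4 asks, so that value is a description. Adamtsl5 (-0.88), Adamts2, a procollagen N-proteinase (-0.23), and Adamts6 (0.13) did not pass. Adamts13, the protease of von Willebrand factor, was detected only in microglia replicate 3, at -2.92, and Adamts12 only in macrophage replicate 4, at -1.42. Adamts14 was detected on 2 arrays and Adamtsl1 on 3.

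**Figure D4:**
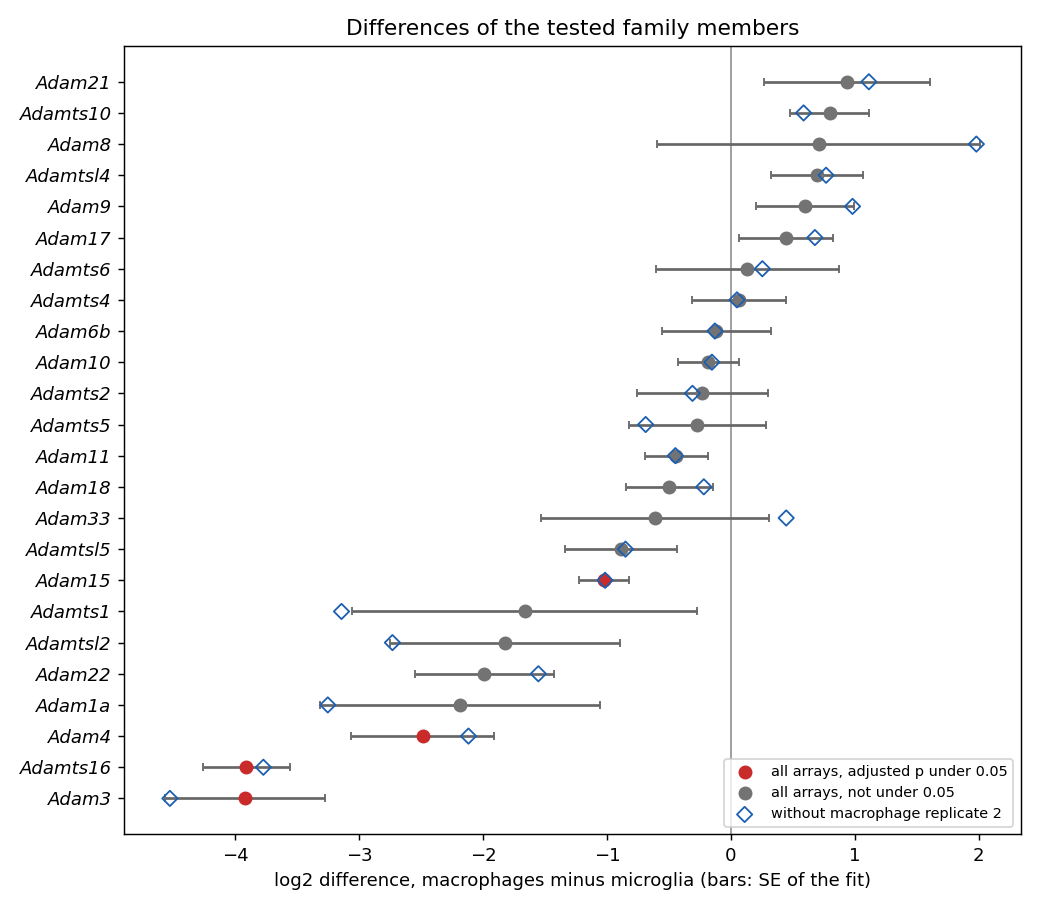
Difference in log2 signal, macrophages minus microglia, with its standard error for the 24 tested members, and as diamonds the difference without macrophage replicate 2. Adamts16, Adam3, Adam4 and Adam15 passed the test, and the diamonds of Adamts1, Adam1a, Adam8 and Adam33 lie at least 1.06 log2 units from their bars' centres.

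Leaving out macrophage replicate 2 raised the number of called members from 4 to 8. Adam1a, Adam3, Adam4, Adam15, Adamts1, Adamts16 and Adamtsl2 were then lower and Adam9 higher. The names tested there were those that met the detection rule with all arrays. Without replicate 2, Adam3, Adam4 and Adamtsl2 had no detected macrophage array, and Adamtsl2 no longer met that rule. Calls over all tested names rose in the same fit, to 6.86% lower and 8.27% higher.

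Among the genes that work with these proteases, those for inhibitors came first. Of 7 inhibitors on the array, 3 were tested and 1 passed, beside 4.13% of all tested names called lower and 2.53% called higher. The 3 did not go one way: Timp4 was lower, Timp3 had a difference above 0 and Timp2 one of -0.86, which is the median (0.02 over all tested names). Timp2 was at 3.25 in macrophage replicate 2 against 5.68 to 6.28 in the other macrophages, and without that array its difference was -0.17. Timp4, a tissue inhibitor of metalloproteinases, had values of -0.85, -1.44, -0.76 and -1.15 in microglia and -3.96, -2.95, -2.51 and -2.68 in macrophages. The groups did not overlap, and Timp4 was 3.58-fold lower in macrophages with signals raised to the floor, 3 of 4 macrophage arrays being detected (difference -1.98, SE 0.35, limma adjusted p = 0.0132). A block for the animal ended that call (adjusted p = 0.0506). Timp3, the matrix-bound inhibitor of ADAM17 and of ADAMTS proteases, had values of -3.97, -3.18, -2.42 and -2.47 in microglia and -0.99, 4.22, 0.052 and -0.013 in macrophages. All macrophages lay above all microglia, with replicate 2 the highest, and 3 of 4 microglia arrays were detected. The difference was 3.83 (SE 1.03, limma adjusted p = 0.0647), and without replicate 2 it was 2.69 (adjusted p = 0.00934). Of 14 genes for ADAM maturation and trafficking, 10 were tested and 1 passed, on the lower side, where 4.13% of all tested names were called (median difference -0.04). It was Tspan33, a tetraspanin of the group that binds ADAM10. Tspan33 had values of -1.27, -2.01, -2.83 and -3.29 in microglia and was detected in 0 of 4 macrophage samples. Like Adam4 it met the detection rule through microglia alone and so had to lie lower in macrophages. It was at least 2.83-fold lower there (limma adjusted p = 0.0410), a call that the animal block ended (0.0981).

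Most genes for proteins that ADAM10 and ADAM17 are known to shed did not pass the test, and those that did went both ways. Of 34 on the array, 28 were tested, of which 3 rose and 5 fell in macrophages and 20 were not called, beside 2.53% higher and 4.13% lower over all tested names. The median difference was -0.41. Under the animal block, 1 rose and 3 fell, beside 1.29% and 2.44% of all tested names. Lag3, an inhibitory receptor that is shed by both enzymes, had values of 5.05, 4.50, 4.88 and 4.75 in microglia and -0.19, -2.09, -0.12 and -0.22 in macrophages. It was 43.8-fold lower in macrophages (limma adjusted p = 0.000263). Cd163, a haemoglobin scavenger receptor of macrophages, had values from 0.33 to 1.22 in microglia and from -5.99 to -2.73 in macrophages. It was 18.2-fold lower with signals raised to the floor, 2 of 4 macrophage arrays being detected (limma adjusted p = 0.00550). Cd163 is also 1 of 6 border macrophage markers, whose medians were 1.19 to 2.18 in microglia (5 to 6 detected) and -2.28 to 1.44 in macrophages (3 to 6 detected), and the part of such cells was not tested. L1cam, an adhesion molecule of neurons and other cells, had values of -3.70, -1.70, -2.60 and -3.34 in microglia and -0.60, 0.62, 0.00 and -1.21 in macrophages. The groups did not overlap, with 2 of 4 microglia arrays detected, and the difference was 2.54 (SE 0.53, limma adjusted p = 0.0257). The L1cam call stood under the animal block (limma adjusted p = 0.0137) and ended with slide as a block (0.0571). App, the amyloid precursor protein gene, ranged from 2.22 to 3.21 in microglia and from 3.63 to 4.71 in macrophages. It was 2.68-fold higher (limma adjusted p = 0.0338), a call that the animal block ended (0.0707).

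Of 19 genes for matrix proteins that ADAMTS enzymes cut, 10 were tested and 3 of these rose in macrophages, beside 2.53% of all tested names, with a median difference of 1.98. They were Vcan, the versican gene (difference 2.98, SE 0.59, with 2 of 4 microglia arrays detected), Fn1, the fibronectin gene (2.24, SE 0.43), and Dcn, the decorin gene (2.52, SE 0.55). Their limma adjusted p-values were 0.0219, 0.0196 and 0.0318, and all 3 calls ended under the animal block (0.0666, 0.0937 and 0.0994). The 1 gene of this list called with the block was Thbs1, the thrombospondin 1 gene, with an adjusted p of 0.0265 there and of 0.209 without it. Comp, the gene of a cartilage matrix protein cut by ADAMTS proteases, had values of 2.61, 1.91, 2.25 and 1.86 in microglia and -0.97, -4.93, -0.39 and -0.17 in macrophages. The groups did not overlap, with macrophages below in 4 of 4 animals and 3 of 4 macrophage arrays detected. The difference was -3.77 (SE 0.96, limma adjusted p = 0.0546), and without replicate 2 it was -2.67 (adjusted p = 0.00161). Vcan and Fn1 are also on the list of monocyte-derived macrophage markers, which ranged in median from 2.71 to 3.61 in macrophages and from 0.07 to 1.37 in microglia. Dcn is a fibroblast marker too, and so are Col1a1, Col1a2 and Col3a1, which were tested in this list and not called. The 7 fibroblast markers had medians of -5.37 to -3.34 in microglia and -2.96 to -1.60 in macrophages, so these medians share genes with the substrate list. Of the fibroblast markers outside that list, Lum was detected on no array, Pdgfra had a difference of -0.20 and Slc6a13 one of 0.04. The part of fibroblasts and monocyte-derived macrophages in the values was not tested.

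Of 10 ligands and counter-receptors of the non-catalytic ADAMs, 4 were tested and 1 passed, on the lower side, where 4.13% of all tested names were called. The median difference was -0.36. Itgb3, the integrin beta 3 chain to which disintegrin domains can bind, had values of 2.40, 2.80, 3.07 and 2.90 in microglia and -1.81, -2.35, -2.10 and -1.80 in macrophages. The groups lay far apart, and Itgb3 was 28.0-fold lower in macrophages (difference -4.81, SE 0.24, limma adjusted p = 2.3e-05). The call stood under the animal block (adjusted p = 0.00292). Without macrophage replicate 2, the inhibitors had 1 higher and 1 lower call, the shed substrates 6 and 10, the ADAMTS substrates 5 and 1, the maturation genes 0 and 3, and the ligands 0 and 1, beside 8.27% higher and 6.86% lower over all tested names.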

How the data were processed

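Per the labels' protocols, RNA of sorted cells was column-purified, mRNA-derived cDNA was amplified by a global PCR and labelled with Cy3, which can alter the proportions of transcripts. The scanner images were quantified by Agilent Feature Extraction (version 10.7.3.1 per the file headers), a tool also named in the submitters' processing notes. The processed signal that the authors deposited for each spot is a background-subtracted intensity, not normalized between arrays. The deposited flag columns mark spots as well above background and as outliers. The authors also deposited log2 values of the same arrays, used as an alternative, with medians of 4.604 to 4.606 and correlations of 0.996 to 1.000 with their own array. How these were centred and normalized is unknown here.

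Control and outlier-flagged spots were dropped, log2 signals of repeated spots were averaged, and the 75th percentile of the array over all 55681 probes was then subtracted. Names whose brightest probe was well above background on 4 or more of the 8 arrays were tested by limma (version 3.58.1, lmFit and eBayes, under R 4.3.3), with Benjamini-Hochberg adjustment over 19720 names and a threshold of 0.05 on the two-sided adjusted p. The step was tested on simulated data. For folds of genes undetected on part of a group, signals under the lowest well-above-background signal of an array were raised to it, and where a whole group was undetected the fold is a bound. Alternatives were other scalings and filters, normexp with an offset of 50, the mean over probes, an intensity trend, the animal or slide as a block, single slides and leaving out each array. The 4 samples per group limit the precision, and no probe was saturated.

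The labels name the animal of each sample, which pairs the samples. Within animals A to D, the deviations of both samples from their group means had correlations of 0.0621, 0.102, 0.0637 and -0.0125 across gene names. The members and lists were chosen with earlier results of these data known, and the blocked fit without animal B was added after seeing the data. Values of all arrays are given for called members, the sheddases and members differing by at least 2. Of the other lists, called genes are named, or the 2 with the smallest adjusted p in each direction where over 4 were called. Adam22, Thbs1, Timp3, Comp and other members with values on all arrays were chosen after their values were seen. Tables were assembled in Python (3.11.15, with pandas 2.3.3).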

Additional observations from a re-analysis of the deposited data

Results flagged for a closer look

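Within the 48 groups of 4 values looked at (24 tested members in both cell types), 2 had an array whose distance to its nearest neighbour passed Dixon's critical share of the range of its group, and chance gives about 1 in 20. Adam33 was -3.46 in macrophage replicate 2 against 0.32 to 1.09 in the other macrophages, on the array that also stood apart in endothelial and other cell type markers. Adamts5 was -2.93 in microglia replicate 3 against -3.53 to -3.50 in the other microglia.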

How the results depend on the processing

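Adamts16, Adam3, Adam4 and Adam15 were below microglia under every alternative run. The number of members lower in macrophages (4) was 3 with the animal as a replicate block, 2 with median centring, no filter, slide as a block or the block without animal B, 1 with detection on all arrays required (8 members tested), and 0 within either slide (6 and 4 members at an unadjusted p under 0.05, limma). With the percentile over detected probes 5 members were lower, Adam22 being added, and with normexp 3, Adam4 being lost. Leaving out 1 array gave 2 to 7 lower members and 0 to 1 higher. Over all names, higher calls (498) were 803 with median centring, 277 without a filter, 255 with the animal block, 257 with that block without animal B, 270 with the slide block, 55 and 8 within the slides, and 198 to 1630 without 1 array. Lower calls (815) were 1267 with the percentile over detected probes, 485 with detection on all arrays, 481 and 471 with the blocks, 195 and 114 within the slides, and 441 to 1353 without 1 array. The share of higher calls moved from 37.9% to 55.9% with median centring, which shifted the median of all names by 0.21, and to 26.3% with the detected-probe percentile, which shifted it by -0.16. It was 51.1% with detection on all arrays. In the 5 pathway lists, higher calls (6) were 3 without a filter, 2 with the animal or the slide block, 3 with the block without animal B, and 1 to 12 without 1 array. Lower calls (8) were 4 with the animal block, 5 without animal B and 4 to 16 without 1 array. Signs of uncalled members turned for Adam10 (0.023, median centring), Adam11 (0.34, mean over probes), Adam33 (0.52, slide 1; 0.51, block without animal B; -1.07 to 0.45 without 1 array), Adam6b (0.088 median centring, 0.044 quantile, 0.044 deposited values, 0.44 slide 2; -0.49 to 0.14), Adamts2 (0.086 mean over probes, 0.073 slide 2; -0.54 to 0.24), Adamts4 (-0.093 detected-probe percentile, -0.22 slide 1; -0.20 to 0.28), Adamts5 (0.0056 normexp, 0.14 slide 2; -0.69 to 0.28) and Adamts6 (-0.028 detected-probe percentile, -0.029 normexp; -0.36 to 0.62). The cause of these changes was not tested.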
